A study of Mus musculus with 2 samples.

Results

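The regenerating-protein (Reg) family and a set of secretory genes of pancreatic acinar cells, 10 genes in all, were examined in mouse spleen RNA. They were Reg1, Reg2, Reg3a, Reg3b, Reg3d, Reg3g, Sycn, Gp2, Dmbt1 and Pdia2, matched to the array through RefSeq accessions, out of 20655 genes with a named probe. The 10 genes were chosen because several of them differed between the same arrays described here, so their differences are given as a description, with no test. Total RNA of spleen was hybridised to 2 one-colour Agilent microarrays, 1 for male wild type (Loxl3+/+) and 1 for male Loxl3 knock-out (Loxl3-/-) as labelled, both untreated and healthy. Age, strain and how the allele was made are not stated in the labels, nor is whether animals were pooled. With 1 array per group there was no replicate check and no p-value, and errors written after ± are those of the scanner software for the spots, which hold no variation between animals.

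Acinar cells of the exocrine pancreas make digestive enzymes, pack them into zymogen granules and release them by exocytosis. Reg proteins are small secreted proteins with a C-type lectin fold. Reg1 and Reg2 are abundant in pancreatic juice, while Reg3 proteins are known from pancreatitis and as antimicrobial lectins of the gut, where interleukin 22 acts through STAT3 to induce some of them. Healthy spleen is not known as a main site of expression for any of these groups.

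The genotype label was checked first. The single Loxl3 probe read 117 ± 16.4 for wild type and 125 ± 18.5 on the array labelled knockout, where readings are linear intensities. After each array was scaled to its own 75th percentile, a scaled log2 difference of −0.43 ± 0.29 remained. Where this probe lies relative to the deleted part was not stated in the labels, so it checks the label only weakly, and the array is named by its label throughout. All 12 spleen lymphoid and macrophage markers on a fixed list were well above background on both arrays, with a median log2 difference of −0.25 that turned positive with quantile normalization, without scaling, in the deposited value table and with the median over probes. The 75th percentile of signal was 974 for wild type and 1400 for the array labelled knockout, and negative control spots averaged 11.5 and 14.9.

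Reg and granule genes were higher on the array labelled knockout by very unequal amounts, from 28.5-fold for Reg1 to 2.57-fold for Reg3d among those detected on both. Of the 10 genes, 7 were well above background on both arrays, by the scanner software's own detection call, and all 7 were higher by 2-fold or more on the array labelled knockout. Reg3b and Reg3a were well above background on the array labelled knockout alone, and Reg3g on neither. Among all 13033 genes above background on both arrays, 1.8% were at least 2-fold higher, and among all 13714 genes above background on at least 1 array 2.57% were, with 2.26% at least 2-fold lower. Because the genes were chosen from this contrast, nothing is read from the distance between these shares. The 9 genes with a value had a median log2 difference of 3.06, against −0.09 over all genes measured. That median includes Reg3a and Reg3b, which had a value only through the array where they were brighter. In whole-tissue RNA, more cells of one type and more RNA per cell cannot be told apart.

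**Figure D1:**
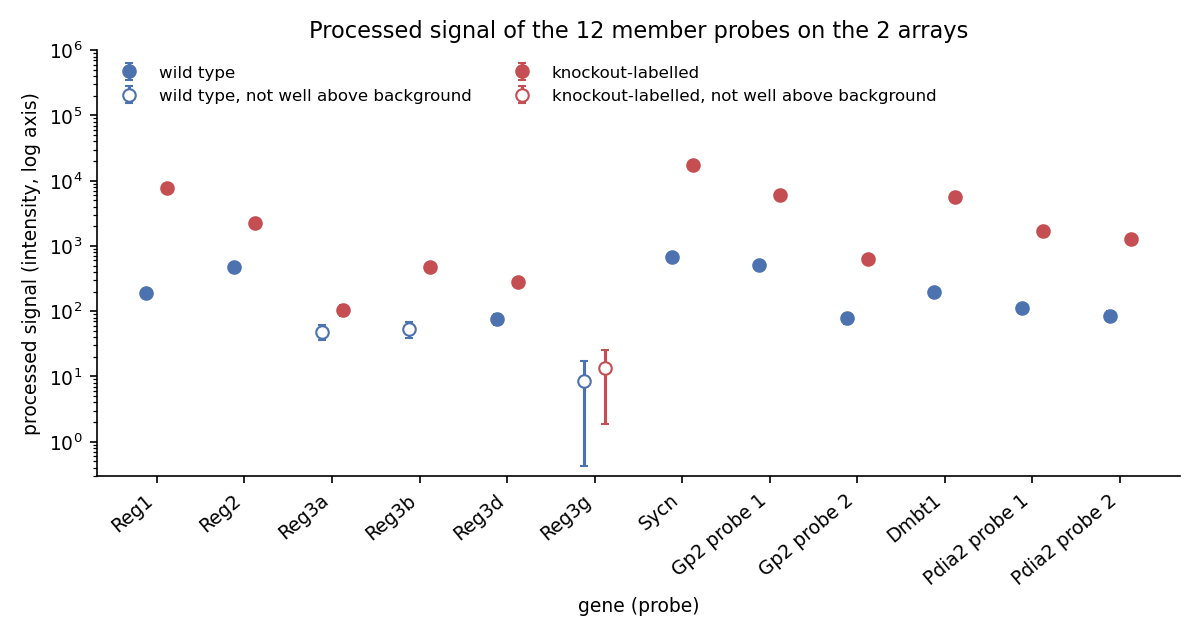
Processed signal (linear intensity, log axis) of the 12 probes of the 10 genes on the wild-type array (blue) and the array labelled knockout (red). Bars are the scanner software's error of the spot, cut at the lower end for Reg3g, and open symbols are spots not well above background. The symbol of the array labelled knockout lies above the wild-type symbol for each of the 12 probes before scaling, and the bars overlap for Reg3g alone.

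Reg1, a secreted lithostathine of acinar cells, had the largest difference of the 7 genes detected on both arrays. The probe read 190 ± 23.5 for wild type and 7790 ± 779 on the array labelled knockout. The scaled log2 difference was 4.83 ± 0.23, and none of the 13033 genes above background on both arrays had a larger one. Reg2, its close relative and neighbour, was detected on both arrays as well but moved less. It read 477 ± 49.7 for wild type and 2271 ± 228 on the array labelled knockout, which scales to a log2 difference of 1.73 ± 0.21, or 3.31-fold. The differences of Reg1 and Reg2 were apart by 3.11 ± 0.31 on the log2 scale, far beyond that combined spot error.

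Of the Reg3 genes, the differences of Reg3d and Reg3b passed 2-fold, that of Reg3a did not, and Reg3g had no value. Those of Reg3b and Reg3a rest on wild-type readings without a detection call. Reg3b, known as pancreatitis-associated protein, read 53.4 ± 14.7 on the wild-type array, not well above background, and 467 ± 49.7 on the array labelled knockout. With the 75th-percentile scaling it was 6.09-fold higher there, a log2 difference of 2.61 ± 0.43, whereas normexp background correction gave 1.29. The wild-type reading of Reg3b lay above the lowest called signal of that array, so this fold is a ratio of readings and not a lower bound. Reg3d, a relative of the islet neogenesis-associated protein, read 75.1 ± 14.6 and 277 ± 31.9, in that order, a log2 difference of 1.36 ± 0.33. With normexp that difference was 0.55 and no longer 2-fold. The normexp setting adds an offset of 50 to every signal, and an added constant narrows the ratio of readings as dim as these.

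Reg3a read 48.5 ± 12 on the wild-type array, not well above background, and 104 ± 20.04 on the array labelled knockout. Its log2 difference of 0.58 ± 0.45 is likewise a ratio of readings and no lower bound. It depended on the processing: without any scaling the log2 difference was 1.105, past 2-fold, and with normexp it was 0.09. Reg3g, the antimicrobial lectin best known from intestine, read 8.52 ± 8.50 and 13.6 ± 11.7 and did not clear background on either array, so it has no fold. Reg4, a more distant family member, was also not well above background on either, with readings of 14.5 and 19.5. The Reg family thus included genes with clear signal on both arrays (Reg1, Reg2, Reg3d), on the array labelled knockout alone (Reg3a, Reg3b) and on neither (Reg3g). The Reg genes are close relatives, and the probe sequences were not used here, so shared signal between their probes was not tested.

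Sycn, which encodes the zymogen granule protein syncollin, read 673 ± 67.9 for wild type and 17648 ± 1765 on the array labelled knockout. Its log2 difference was 4.19 ± 0.20, or 18.3-fold. Gp2, the major glycoprotein of the zymogen granule membrane and also a bacterial receptor of intestinal M cells, had a pair of probes. The brighter read 503 ± 52.0 and 6040 ± 604, a log2 difference of 3.06 ± 0.21. The dimmer read 78.2 ± 13.8 and 640 ± 65.5, a log2 difference of 2.51 ± 0.29. Both Gp2 probes were well above background on both arrays and 5.70-fold or more higher on the one labelled knockout.

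Dmbt1, a secreted scavenger receptor cysteine-rich glycoprotein of epithelia, read 197 ± 24.0 for wild type and 5596 ± 560 on the array labelled knockout. Its log2 difference of 4.30 ± 0.23 was within the combined spot error of that of Sycn (apart by 0.11 ± 0.31). Pdia2 encodes a protein disulfide isomerase of pancreas that works in the endoplasmic reticulum rather than in the granule. Its brighter probe read 112 ± 16.5 and 1725 ± 173, and its other probe 85.5 ± 13.9 and 1265 ± 127. The log2 differences were 3.43 ± 0.26 and 3.36 ± 0.28, so the probes of Pdia2 were closer together than those of Gp2. Every one of the 12 probes was printed once, and none of their spots carried an outlier flag.

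**Figure D2:**
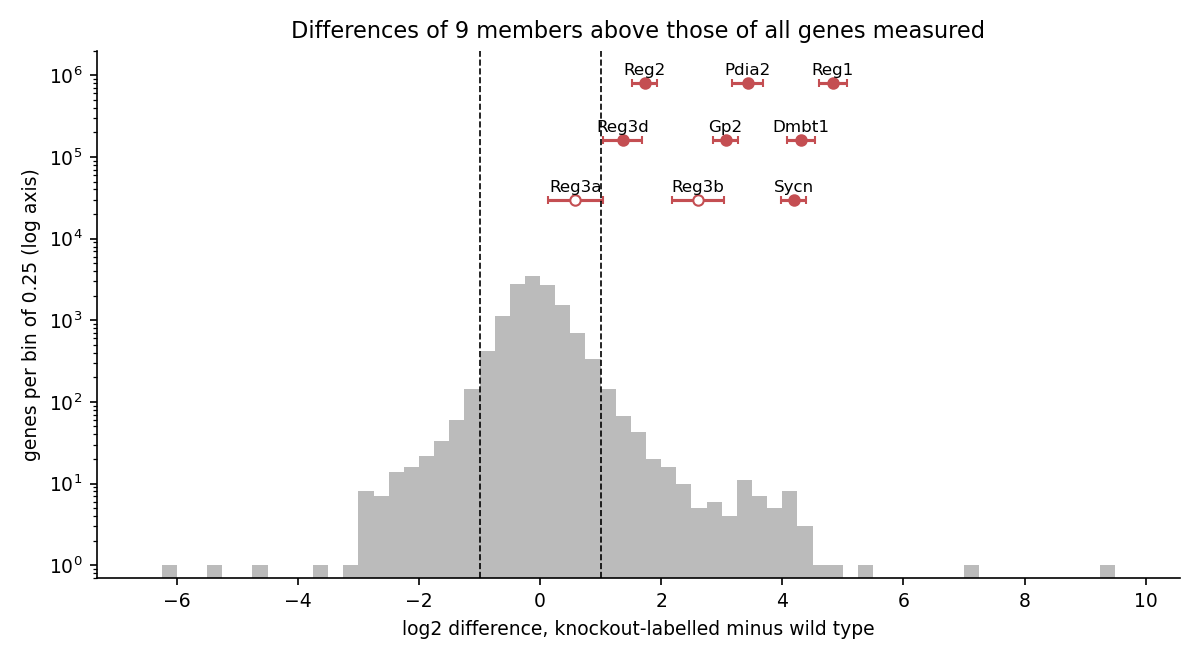
Log2 difference, array labelled knockout minus wild type, for the 9 genes with a value (red, at arbitrary heights, with the scanner software's error) and for all 13714 genes measured (grey bars, genes per bin of 0.25, log axis). Dashed lines mark 2-fold, and open symbols mark genes without a detection call for wild type; 8 of the 9 lie to the right of the 2-fold line, and Reg3a lies between the lines.

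The 7 genes detected on both arrays could be ordered by their difference, as Reg1, Dmbt1, Sycn, Pdia2, Gp2, Reg2 and Reg3d. The first 5 ranked among the 50 highest of the 13033 genes above background on both arrays, and all 7 among the 200 highest. Of the neighbours in this order, Dmbt1 and Sycn, and Reg2 and Reg3d (apart by 0.37 ± 0.39), lay within 1 combined spot error. Reg1 and Dmbt1 were apart by 0.53 ± 0.32 and Pdia2 and Gp2 by 0.36 ± 0.33, both past 1 combined error and short of 2 times that error. Sycn lay above Pdia2 by 0.76 ± 0.33, and Gp2 above Reg2 by 1.33 ± 0.29. Reg3a and Reg3b had no detection call for wild type and have no place in this order. For scale, the log2 difference of 268 probes with repeated spots had a median SD of 0.11 over those spots.

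The digestive enzymes carried in the same granules differed in the same direction. Of 26 enzyme genes on the list, 22 had a probe, with a median log2 difference of 3.59. All 22 were at least 2-fold higher on the array labelled knockout, against 2.57% of all 13714 genes measured. The list, like those that follow, was written with earlier results of these data known, so nothing is read from that distance. Of the 22, 20 were well above background on both arrays, and 2 had a value only through the array where they were brighter. Summed over the 22 genes the signal was 25850 for wild type and 348692 on the array labelled knockout, 9.39 times higher after scaling. Clps, the colipase gene, differed by 4.49 ± 0.21, the elastase gene Cela3a by 4.39 ± 0.20, Prss1, for trypsinogen, by 4.24 ± 0.25 and Cel, for a lipase, by 4.21 ± 0.21. Against the 20 enzymes detected on both arrays, Reg1 lay above all, Dmbt1 below 2 and Sycn below 4. Gp2 and Pdia2 lay inside their range, with 16 and 12 enzymes above them. Reg2 and Reg3d lay near its lower end, with 19 of 20 enzymes above each. Klk1, at 1.15 ± 0.21, was the sole listed gene below them, and the next lowest was Ctrl at 1.96 ± 0.23. The part of pancreatic cells in these differences was not tested.

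Other genes of the acinar secretory route split into groups. Of 16 listed, 9 were measured, 4 passed 2-fold upwards and 1 downwards, with a median of 0.32. Over all 13714 genes measured these shares were 2.57% and 2.26%. Of the 9, 3 had a value only through the array labelled knockout. Among the 6 detected on both arrays, 2 passed 2-fold upwards and the median was 0.18. Spink1, the trypsin inhibitor gene, read 46.8 and 844, a log2 difference of 3.65 ± 0.34. The zymogen granule lectin gene Zg16 read 358 and 5593, a difference of 3.44 ± 0.21, and Cuzd1, of the granule membrane, and Serpini2, a pancreatic serpin gene, were detected on the array labelled knockout alone, at least 2.55-fold and 5.99-fold higher. Rab27b, a small GTPase of secretory granules that haematopoietic cells use too, went the other way, with 882 and 333 and a difference of −1.93 ± 0.21. The granule fusion genes Rab3d and Vamp8, which many cell types express, were at 0.13 and −0.37. Erp27, also on the list and detected on both arrays, read 1216 and 2047, a difference of 0.23 ± 0.21. Tmed6, detected on the array labelled knockout alone, was at 0.32 as a plain ratio of readings. The 9 measured genes of this list did not share one direction.

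Of 7 listed transcription factors of acinar cells, 5 were measured. Rbpjl, the acinar form of the RBPJ subunit in the PTF1 complex, read 66.4 and 322 and differed by 1.76 ± 0.35. Its partner Ptf1a did not clear background on either array, with readings of 44.1 and 81.5. Bhlha15 and Xbp1, which plasma cells express as well, were both at 0.20, and Gata4 was at −0.33. Of these 5 measured factors 1 was at least 2-fold higher, with a median of 0.20.

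Of the markers of other cells that pancreas or gut could hold, none that was measured passed 2-fold. On these lists 11 islet, 4 duct and 11 intestinal markers were dim on both arrays and could not be compared. Of 15 islet markers 4 were measured and none passed 2-fold, with summed signals of 1051 and 1705. Ins2 was at 0.41 ± 0.21 and Pcsk2 at −0.57 ± 0.24. Ins1 was above background on the array labelled knockout alone and at least 1.33-fold higher. Sst was detected for wild type alone, where it was 1.72-fold higher as a plain ratio of readings. The islet hormone genes Gcg, Ppy, Pyy and Iapp did not clear background on either array. Of 10 duct markers 6 were measured and none passed 2-fold, with summed signals of 906 and 1261, Cftr at −0.44, Sox9 at 0.37, Krt7 at −0.34 and Epcam at 0.27. Of 16 intestinal epithelium markers 3 were measured and none passed 2-fold. Their summed signals were 1408 and 1715, with Fabp1 at −0.88, Lgals4 at −0.30 and Krt20 at 0.19, while Vil1, Cdx1, Cdx2 and Fabp2 did not clear background on either array. The medians of these 3 lists, −0.08, 0.01 and −0.30 in that order, changed sign under 2, 5 and 1 of 10 other ways of processing.

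**Figure D3:**
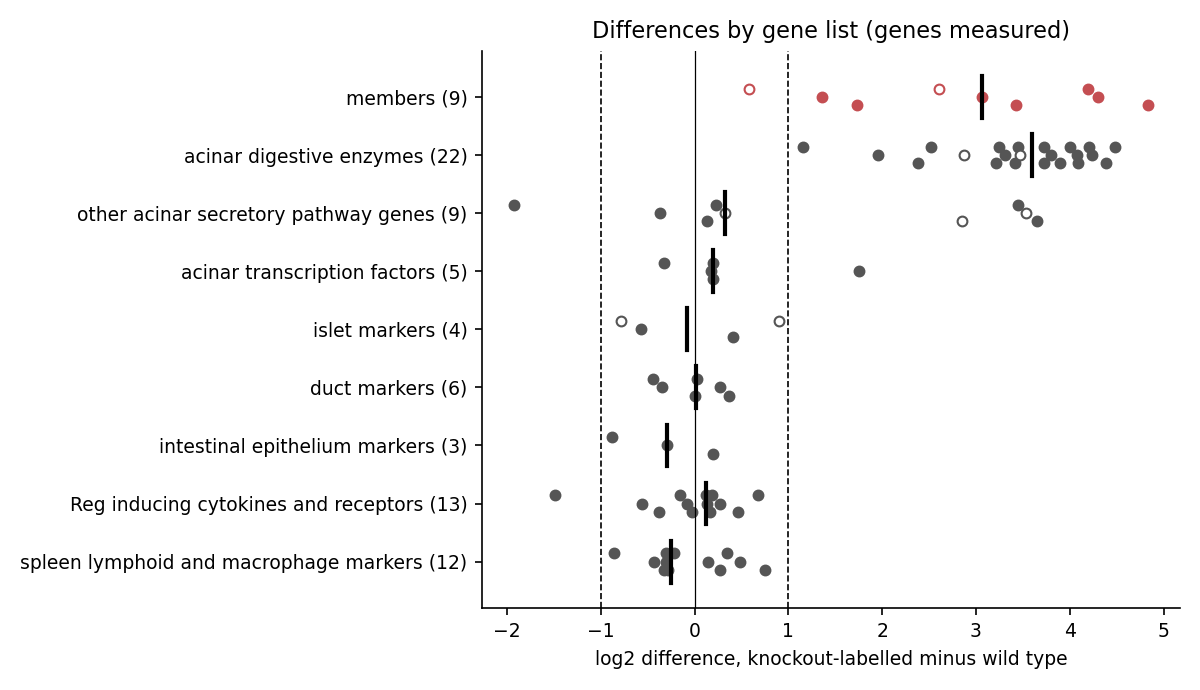
Log2 difference of every measured gene (points) by list, with the list median as a vertical bar and the number of genes in brackets. Open points are well above background on 1 array alone and are drawn at the plain difference of readings, not at a bound. The list medians use the same values, and dashed lines mark 2-fold. All 22 enzymes and 8 of the 9 Reg and granule genes (red, the members) lie right of the 2-fold line, while islet, duct, intestinal and spleen lists lie between the lines.

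Cytokines and receptors that act on Reg genes in other tissues were compared from a list of 17, of which 13 were measured, all on both arrays. None passed 2-fold upwards and 1 passed it downwards, with a median of 0.12. The lower gene was Il22ra2, encoding the soluble interleukin 22 binding protein, with 706 and 363 and a difference of −1.48 ± 0.21. Il22 itself, with dim readings of 57.8 for wild type and 90.3 on the array labelled knockout, was at 0.12 ± 0.42. Il17ra was at 0.68 ± 0.21, Lifr at −0.56 and Osm at 0.46. Il6, Il17a, Lif and the epithelial receptor gene Il22ra1 did not clear background on either array. Stat3 was at −0.16, Socs3 at −0.38 and Extl3, which encodes a proposed Reg receptor, at −0.08 ± 0.20. The list median turned negative with normexp correction and without the filter on dim probes.

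The Reg genes lie side by side on chromosome 6, the chromosome of Loxl3, with 11 annotated protein-coding genes between the cluster and Loxl3 in the RefSeq order of GRCm38.p6. Genes next to the cluster did not share its difference. Of the 4 nearest on each side, 3 were measured. Ctnna2, a catenin gene, was at −0.44 ± 0.41, Gcfc2 at 0.29 ± 0.26 and the mitochondrial ribosomal gene Mrpl19 at 0.07 ± 0.20, and Lrrtm1 did not clear background on either array. Of the 11 genes between the cluster and Loxl3, 8 were measured, none was at least 2-fold higher, and their values ran from −1.63 to 0.29. On the whole chromosome, 3.49% of 716 other genes measured were at least 2-fold higher, with a median of −0.09, and 6 of those 25 genes were digestive enzyme genes of the list above.

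**Figure D4:**
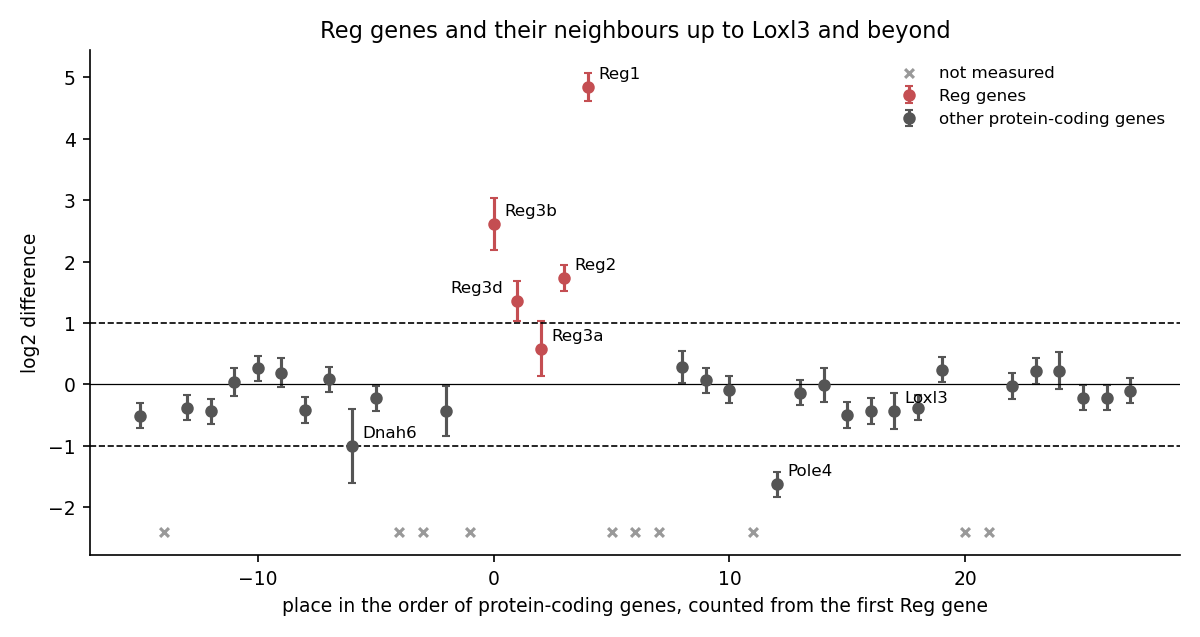
Log2 difference by place in the order of protein-coding genes on chromosome 6, counted from the first Reg gene, with the scanner software's error as bars, dashed lines at 2-fold and crosses for genes not measured. The 5 measured Reg genes (red) lie between 0.58 and 4.83, with Reg3a and Reg3b lacking a detection call for wild type. The measured genes around the cluster up to Loxl3 lie between −1.63 and 0.29.

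Promoter sequences were compared to see what the genes share that their choice did not use. The RefSeq promoter table for GRCm38.p6, which runs from 250 bases before to 50 after an annotated start, held 9 of the 10 genes, Dmbt1 being the one not matched. Shown 5′ to 3′ are Reg1, with the largest difference, its relative Reg2, Reg3b, detected on the array labelled knockout alone, and Reg3g, which was below the detection call on both arrays. Capitals mark the TATA box TATAAA, the E-box CANNTG, the TC-box TTTCCC, all on both strands, and the STAT motif TTCNNNGAA. The E-box and TC-box are the letters that the acinar PTF1 complex is known to bind, and the STAT motif is the palindrome bound by STAT factors such as STAT3.
Reg1 promoter, chr6:78425733-78426032, plus strand: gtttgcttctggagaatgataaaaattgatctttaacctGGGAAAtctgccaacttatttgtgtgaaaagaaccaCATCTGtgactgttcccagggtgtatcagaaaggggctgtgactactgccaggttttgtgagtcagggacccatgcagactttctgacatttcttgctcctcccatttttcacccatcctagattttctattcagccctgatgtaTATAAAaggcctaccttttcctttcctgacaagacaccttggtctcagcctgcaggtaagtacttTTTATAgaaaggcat
Reg2 promoter, chr6:78404905-78405204, plus strand: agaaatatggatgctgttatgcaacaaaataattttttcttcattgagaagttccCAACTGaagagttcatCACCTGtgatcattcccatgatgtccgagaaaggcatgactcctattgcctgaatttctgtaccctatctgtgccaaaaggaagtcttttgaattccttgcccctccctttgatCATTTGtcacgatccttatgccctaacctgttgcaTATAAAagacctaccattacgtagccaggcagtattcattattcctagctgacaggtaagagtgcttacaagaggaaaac
Reg3b promoter, chr6:78370635-78370934, plus strand: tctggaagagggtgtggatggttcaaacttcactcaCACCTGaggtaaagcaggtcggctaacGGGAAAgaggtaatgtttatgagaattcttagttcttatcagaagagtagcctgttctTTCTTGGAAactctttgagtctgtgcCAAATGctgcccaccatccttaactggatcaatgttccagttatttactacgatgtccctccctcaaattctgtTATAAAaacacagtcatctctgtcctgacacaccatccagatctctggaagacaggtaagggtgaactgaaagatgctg
Reg3g promoter, chr6:78468825-78469124, minus strand: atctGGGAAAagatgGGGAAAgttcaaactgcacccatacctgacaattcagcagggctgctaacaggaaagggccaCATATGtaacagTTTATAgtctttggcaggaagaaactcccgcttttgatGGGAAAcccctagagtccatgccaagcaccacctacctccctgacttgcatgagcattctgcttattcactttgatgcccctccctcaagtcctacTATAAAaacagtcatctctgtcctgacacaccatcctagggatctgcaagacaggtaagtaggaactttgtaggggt

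The TATA box was found in 4 of 6 Reg promoters and 1 of 3 of the others (Gp2), against 13.6% of 32851 promoters in the table. In the printed promoters it began 30 bases before the start in Reg1 and Reg2, 29 in Reg3b and 27 in Reg3g. The E-box, present in 72.3% of all promoters, was in all 6 Reg promoters and in Gp2 and Pdia2 but not Sycn. The TC-box, in 25.2% of all, was in Reg1, Reg3b, Reg3d and Reg3g. The STAT motif, in 8.3% of all, was in Reg3b and Reg3d, and in Reg3d it overlapped a TC-box. Reg3g, without a detection call, and Reg1, which had the largest difference, thus both held a TATA box, an E-box and a TC-box, and these letters did not order the genes by their difference. Aligned end to end, Reg3b and Reg3g were the most similar pair with 68.1% identical columns and Reg1 and Reg2 had 55.3%. The 21 pairs that include Sycn, Gp2 or Pdia2 ran from 42.7% to 47.5%, and 5 of the 15 pairs of Reg promoters, such as Reg1 and Reg3a with 46.0%, lay in that range too.

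The differences were also followed through other ways of processing the same signals. Over all 11, Reg1 stayed between 4.20 and 5.36, Sycn between 4.10 and 4.71, Dmbt1 between 3.71 and 4.83, Pdia2 between 2.49 and 3.95 and Gp2 between 2.79 and 3.59. Reg2 ran from 1.47 to 2.25. Of the dimmer Reg3 genes, Reg3b ran from 1.29 to 3.13, Reg3d from 0.55 to 1.88 and Reg3a from 0.09 to 1.105, each lowest with normexp and highest without scaling. Reg3b and Reg3a had a value under 10 of the 11, since keeping only probes above background on both arrays drops them. In the authors' deposited table, Reg1 was at 7.89 and 12.8 log2 units and Reg2 at 9.18 and 10.9, wild type first.

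**Figure D5:**
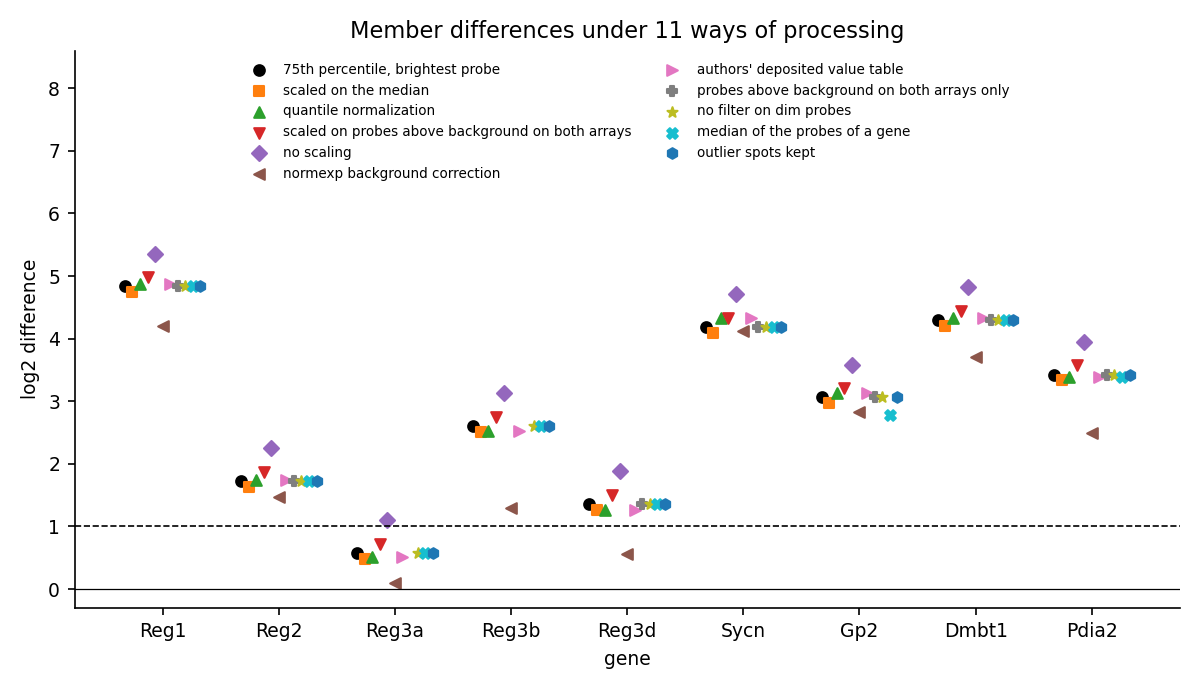
Log2 difference of each gene with a value under 11 ways of processing (symbols). The dashed line marks 2-fold. Reg1, Reg2, Sycn, Gp2, Dmbt1, Pdia2 and Reg3b stay above it under all that give a value, Reg3d falls below it with normexp correction (brown triangle, 0.55), and Reg3a passes it without scaling alone (purple diamond, 1.105).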

How the data were processed

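Groups came from the genotype in the labels. Each deposited scanner file gives a linear intensity per spot, made with Feature Extraction 11.0.1.1, per the file headers, which name mm9 as the genome build. The authors' deposited table holds log2 values with both medians at 6.71, and its differences were within 1 of quantile-normalized scanner values for all but 3 of 39420 probes, so its scaling is inferred.

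Control spots and outlier spots (110 and 132) were left out. Log2 processed signals were averaged per probe and each array's 75th percentile was subtracted, a shift of 0.52 between arrays. Accessions matched to RefSeq named 27226 of 39420 probes. Each gene took the value of its brightest probe among those well above background on at least 1 array. For a gene above background on 1 array, "at least" gives the bright signal over the higher of the dim signal and that array's lowest signal above background. Where the dim signal was the higher, as for Reg3a, Reg3b and Sst, the plain ratio of readings is given, which is no bound. The number of arrays limits the precision, and differences were described at 2-fold without a test. The calculation was tested on simulated data. The genes and lists were chosen with earlier results of these data known; genes named are the 10, Loxl3, Extl3, Reg4, up to 4 per list by size of difference, and 4 neighbours on each side, and others were named after their values were seen. Alternatives were other scalings, normexp (limma 3.58.1, offset 50, on the median signal), probe filters and the deposited table.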

Additional observations from a re-analysis of the deposited data

How the results depend on the processing

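Under all 10 alternatives, every gene of the 10 with a value stayed above 0, and the number at least 2-fold higher was 8 in 7 of them, 7 with normexp and with probes above background on both arrays, and 9 without scaling. Several of these settings could hardly differ, so their number is no measure of robustness. For a gene with a single probe detected on both arrays, such as Reg1, the probe filters and the median over probes return the same value. Keeping outlier spots could act on the 10 genes only through the scaling. Quantile normalization and the deposited table gave nearly the same values, with Reg1 at 4.87 in both. The median of the 9 was 3.59 without scaling, 2.49 with normexp, 2.79 with the median over probes, and 3.43 with probes above background on both arrays, where 7 were left. Over all genes, 352 were at least 2-fold higher and 310 lower (53.2% higher). These counts were 1466 and 102 without scaling (93.5% higher), 151 and 186 with normexp, and 613 and 699 without the filter on dim probes. Scaling on the median gave 41.3% higher, and scaling on probes above background on both arrays gave 70.9% and moved the median of all genes by 0.15; no scaling moved it by 0.52. Normexp was run on the median spot signal. The cause of these shifts was not tested. No paired analysis was possible because each group had 1 array, and for the same reason no array could be left out. Signal close to background limits Reg3a, Reg3b, Reg3d and Reg3g.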

Other observations

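Relatives of Pdia2 and Dmbt1 were compared from fixed lists. Of 10 protein disulfide isomerase family genes 9 were measured and none passed 2-fold, with Pdia3 at 0.78 ± 0.20, Pdia5 at −0.64 ± 0.21, Pdia4 at 0.48 and P4hb at −0.32, against 3.43 for Pdia2. Their median of −0.02 changed sign under 6 of 10 other ways of processing. Of 10 genes with scavenger receptor cysteine-rich domains or related to them, 9 were measured and none passed 2-fold, with the macrophage genes Cd5l at −0.86 ± 0.20 and Cd163 at 0.73 ± 0.34, Msr1 at 0.22 and Loxl3 itself at −0.43, against 4.30 for Dmbt1. That median, also −0.02, changed sign under 4 of 10.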
